A study of Homo sapiens with 54 samples.

Results

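The zinc finger genes of chromosome 19q13.41 around ZNF649 were followed across 3 human colorectal cancer cell lines, in cells sensitive to 5-fluorouracil (5-FU) and in cells grown to resistance. The 37 members were taken by symbol from the 59368 genes of the deposited gene table and ordered by genome position. From ZNF577 to ZNF331 they covered 1.78 Mb, at chr19:51804816-53580269 of GRCh38 in the GENCODE 44 annotation, with 15 genes on the plus strand and 22 on the minus strand. All 37 are annotated as protein-coding. The lines were HT-29, HCT-116 and DLD-1. Each form of each line received 10 µM uracil, 10 µM 5-FU, or 10 µM 5-FU followed by irradiation at the DL50 of the line (5-FU+IR), with the drug or the uracil present for 24 h. Uracil, the natural base that 5-FU mimics, was the control in every line and form, and irradiation was never given without 5-FU. Each of these 18 conditions had 3 libraries, 54 in all. The resistant cells came from long growth of each line in rising 5-FU and were then kept in 5-FU. Whether the drug was withdrawn before the uracil was added is not given in the sources used here, so standing exposure and resistance cannot be told apart under uracil. The 3 libraries of a condition measure the spread between cultures of a single selected population, not between independent selections.

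KRAB zinc finger proteins form the largest family of human transcription factors. Their tandem C2H2 fingers bind DNA, often within transposable elements, and their KRAB domain recruits TRIM28, which brings the histone methyltransferase SETDB1 and the mark H3K9me3 and so silences the bound region. The genes lie in clusters that arose by tandem duplication, many of them on chromosome 19, and neighbouring genes often have closely related sequences. 5-FU blocks thymidylate synthase and is built into RNA and DNA in place of the natural bases.

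The labels were checked first, because 1 set of libraries went against them. Of 46 HCT-116 marker genes (in sensitive cells at least 10 TPM in each of its uracil libraries and at most 0.1 TPM in those of the other lines), 44 were at 1 TPM or more in every library labelled resistant HT-29, and none of 5 HT-29 markers and none of 17 DLD-1 markers was. TPM is a transcript level scaled to transcript length and to the depth of the library. The libraries labelled resistant HT-29 are therefore named by their label throughout, and their values are also set against HCT-116. Resistant DLD-1 libraries held 16 of the 17 DLD-1 markers, and resistant HCT-116 libraries 44 or 45 of the 46 HCT-116 markers. No member was among the markers. Totals of estimated counts ran from 38957142 to 218518344 per library, with a median of 51373543, and the deepest library was replicate 2 of sensitive DLD-1 under uracil.

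Promoters were printed for 7 members that stand for the patterns described further on. RefSeq held a promoter for 30 of the 37 members, and the 250 bases before the RefSeq start site are given 5′ to 3′ on the strand of the gene, from GRCh38.p14, with CpG dinucleotides in capitals. ZNF577 was lower in the resistant form of every line, with HT-29 taken as labelled. ZNF468, ZNF816 and ZNF845 were lower in resistant HCT-116 and the labelled resistant HT-29 libraries. ZNF766, ZNF616 and ZNF761 stayed at 4 TPM or more in every library. The windows were chr19:51887952-51888201 (minus strand) for ZNF577, chr19:52857620-52857869 (minus strand) for ZNF468, chr19:52962882-52963131 (minus strand) for ZNF816, chr19:53333499-53333748 (plus strand) for ZNF845, chr19:52269337-52269586 (plus strand) for ZNF766, chr19:52139939-52140188 (minus strand) for ZNF616 and chr19:53431734-53431983 (plus strand) for ZNF761.
ZNF577: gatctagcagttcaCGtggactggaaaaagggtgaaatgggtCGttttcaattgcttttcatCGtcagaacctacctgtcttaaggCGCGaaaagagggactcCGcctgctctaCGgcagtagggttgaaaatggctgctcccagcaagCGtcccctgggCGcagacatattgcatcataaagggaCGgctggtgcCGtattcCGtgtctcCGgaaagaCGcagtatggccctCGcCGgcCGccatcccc
ZNF468: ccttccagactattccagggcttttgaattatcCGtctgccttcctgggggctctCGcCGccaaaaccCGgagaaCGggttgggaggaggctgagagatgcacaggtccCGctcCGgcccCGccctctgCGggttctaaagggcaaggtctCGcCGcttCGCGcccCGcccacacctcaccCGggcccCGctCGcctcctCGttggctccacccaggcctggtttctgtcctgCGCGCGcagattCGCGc
ZNF816: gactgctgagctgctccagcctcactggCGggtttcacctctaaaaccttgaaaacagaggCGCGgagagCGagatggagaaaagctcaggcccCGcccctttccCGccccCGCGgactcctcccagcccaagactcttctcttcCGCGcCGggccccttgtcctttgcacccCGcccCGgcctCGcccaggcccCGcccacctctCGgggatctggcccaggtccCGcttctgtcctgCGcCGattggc
ZNF845: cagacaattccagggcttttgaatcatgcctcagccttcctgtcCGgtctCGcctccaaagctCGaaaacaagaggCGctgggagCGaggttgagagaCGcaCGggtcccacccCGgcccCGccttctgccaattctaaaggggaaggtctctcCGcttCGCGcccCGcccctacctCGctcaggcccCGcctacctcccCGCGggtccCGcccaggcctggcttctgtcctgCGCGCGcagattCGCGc
ZNF766: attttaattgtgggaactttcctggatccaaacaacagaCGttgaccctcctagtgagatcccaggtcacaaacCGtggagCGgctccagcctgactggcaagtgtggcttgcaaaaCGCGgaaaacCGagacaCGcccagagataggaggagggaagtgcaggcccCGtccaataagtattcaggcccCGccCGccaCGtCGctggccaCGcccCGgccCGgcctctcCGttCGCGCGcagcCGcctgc
ZNF616: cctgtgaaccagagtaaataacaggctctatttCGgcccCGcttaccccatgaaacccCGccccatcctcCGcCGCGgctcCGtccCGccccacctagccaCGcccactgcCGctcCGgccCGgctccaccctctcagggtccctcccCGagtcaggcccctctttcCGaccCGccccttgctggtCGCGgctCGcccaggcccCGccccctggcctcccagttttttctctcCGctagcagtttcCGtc
ZNF761: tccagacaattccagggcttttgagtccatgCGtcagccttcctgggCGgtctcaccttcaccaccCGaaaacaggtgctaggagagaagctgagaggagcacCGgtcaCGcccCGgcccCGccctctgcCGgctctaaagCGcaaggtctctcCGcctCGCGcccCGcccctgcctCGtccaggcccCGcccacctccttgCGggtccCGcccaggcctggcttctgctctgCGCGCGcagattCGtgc

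These promoters were rich in CpG whether or not the gene was lower in resistant cells. The 7 windows held 17 CpG in ZNF577, 23 in ZNF468, 19 in ZNF816, 23 in ZNF845, 20 in ZNF766, 21 in ZNF616 and 21 in ZNF761. Over the 30 members the median was 18.5 (range 10 to 28), beside 11 over 35116 RefSeq promoters. Among the 11 members with a promoter that were lower in 2 or 3 lines, HT-29 as labelled, the median was 17 (range 10 to 23). Among the other 19 it was 19 (range 11 to 28). The letters GGGGCGGGG, a GC box of the kind bound by SP1, were found on either strand in 13 of 30 member promoters (43.3%) and in 15.1% of all promoters, and 5 of those 13 belonged to members lower in 2 or 3 lines. AAGATGGCG, from the YY1 motif, was found on either strand in ZNF615 and ZNF614 (6.67%, beside 0.652% of all). GCGCANGCG, from the NRF1 motif, was found in ZNF415 and ZNF347 (6.67%, beside 6.56%), and CCGGAAGT, an ETS motif, in ZNF578 (3.33%, beside 3.42%).

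The members did not form a uniformly transcribed block. Over the 54 libraries 7 members had a mean of at least 1 TPM in all 18 conditions, 21 in some and 9 in none. The 7 were ZNF616, ZNF766, ZNF480, ZNF611, ZNF160, ZNF765 and ZNF761. The highest means over all libraries were those of ZNF766 (16.2 TPM), ZNF468 (15.1 TPM) and ZNF28 (14.0 TPM), and these 3 behaved differently: ZNF766 stayed between 11.6 and 21.2 TPM, whereas ZNF468 ran from 0.0915 to 47.1 TPM and ZNF28 from 0.0245 to 54.1 TPM. ZNF534 was at 0 in nearly every library and reached at most 0.013 TPM.

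**Figure D1:**
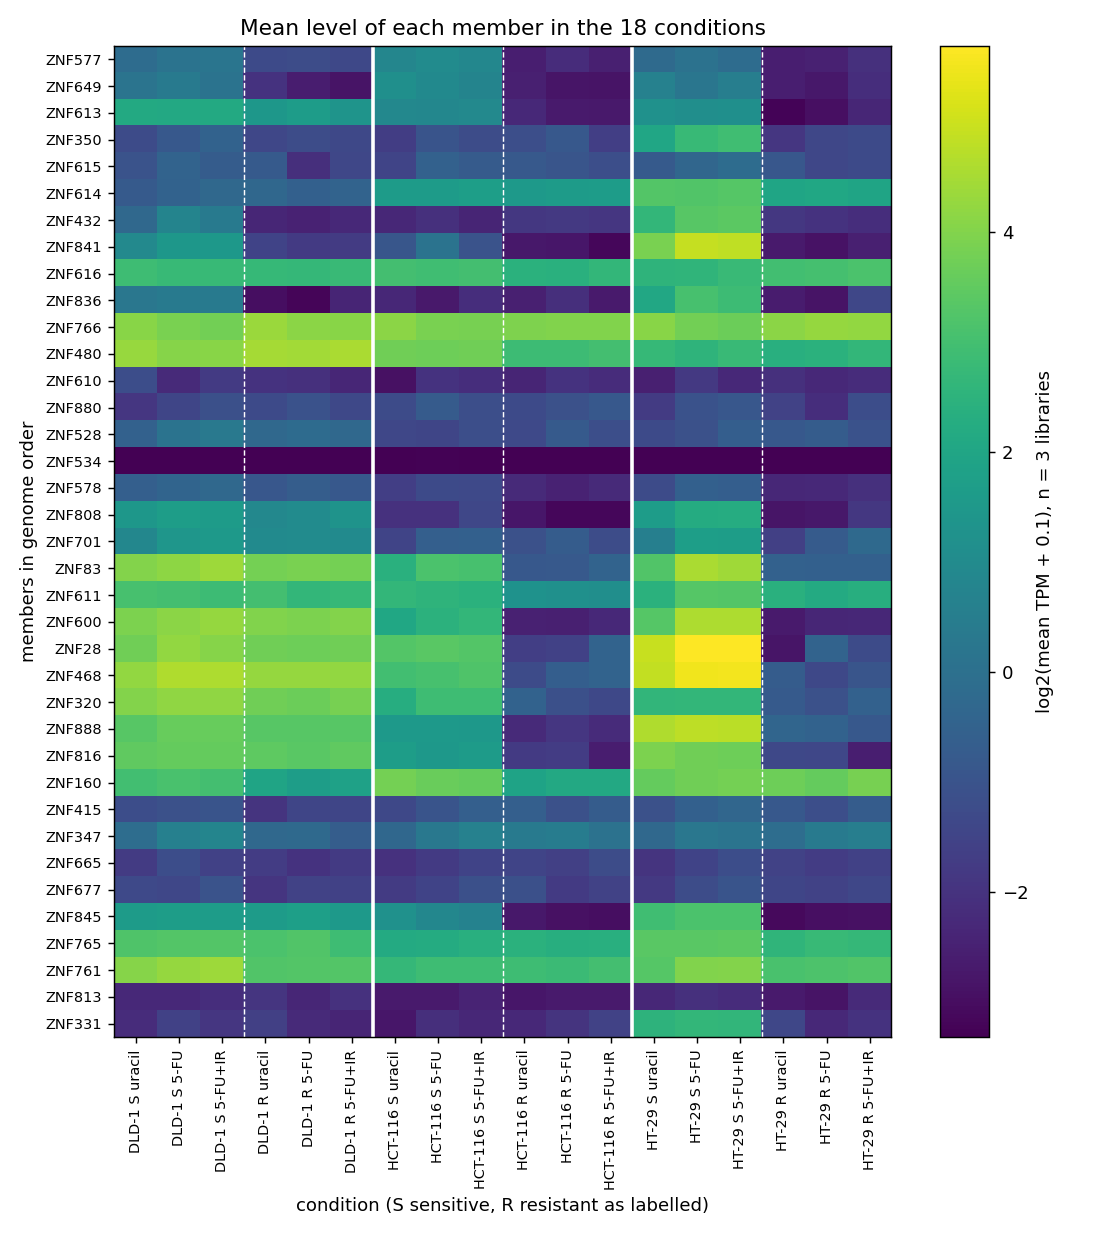
Mean level of each of the 37 members, in genome order from top to bottom, in the 18 conditions, as log2(mean TPM + 0.1) of 3 libraries (S sensitive, R resistant as labelled). The stretch from ZNF83 to ZNF816 is bright in both forms of DLD-1 and in sensitive HCT-116 and HT-29, and most of it is dark in the resistant HCT-116 columns and in the columns labelled resistant HT-29.

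Summed over the members, the level under uracil was lower in each resistant form. The sum was 208 ± 2.24 TPM (SD, n = 3) in sensitive and 189 ± 3.96 TPM in resistant DLD-1, a ratio of 0.908. In HCT-116 it was 121 ± 3.26 and 56.6 ± 1.17 TPM, a ratio of 0.466. In HT-29 it was 253 ± 2.46 TPM in sensitive cells and 73.8 ± 2.67 TPM in the libraries labelled resistant, a ratio of 0.291. The libraries of the compared forms did not overlap in any line. The number of members at 1 TPM or more in all 3 uracil libraries was 19 in sensitive and 18 in resistant DLD-1. In HCT-116 it was 18 in sensitive and 8 in resistant cells, and for HT-29 it was 25 and 8. In bulk RNA, fewer cells transcribing a gene and less RNA in each cell cannot be told apart.

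**Figure D2:**
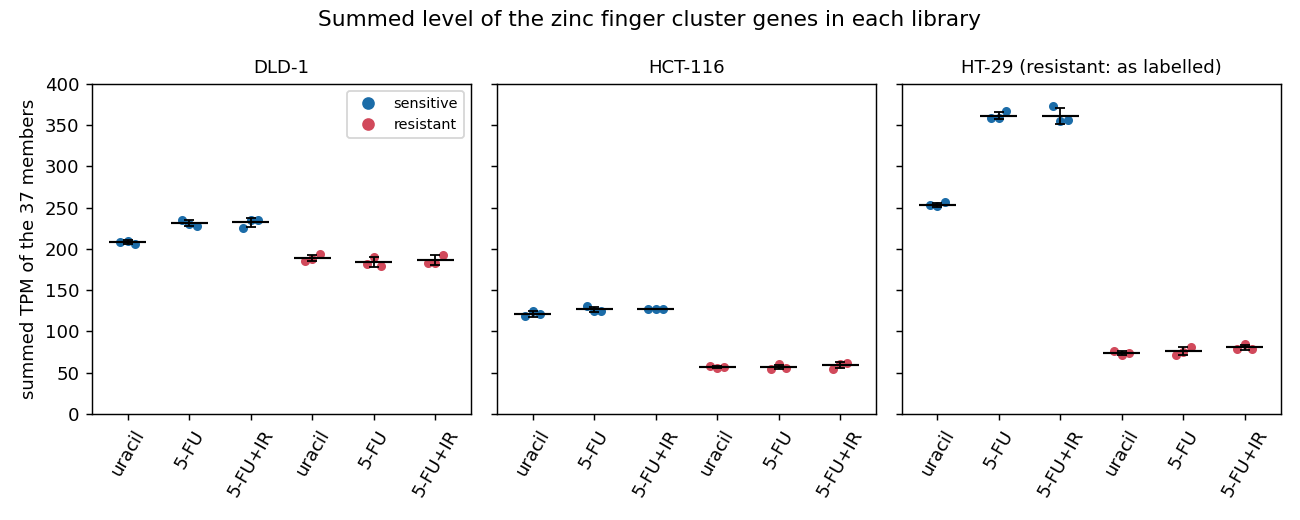
Summed TPM of the 37 members in each of the 54 libraries (points), with the mean and SD of the 3 libraries of a condition (lines and bars), by treatment within each line. In HCT-116 and HT-29 the resistant points lie far below the sensitive ones under every treatment, and the sensitive HT-29 points average 253 TPM with uracil and 361 TPM with 5-FU.

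Whether the members differed between resistant and sensitive cells was asked first under uracil. A member was counted where it changed by 2-fold or more and its adjusted p (edgeR quasi-likelihood test, Benjamini-Hochberg over all genes tested) was 0.01 or less. In DLD-1, 5 of 33 members tested fell, where 2.01% of 21814 genes tested did. In HCT-116, 14 of 32 fell, where 6.8% of 22975 genes did. In the libraries labelled resistant HT-29 against sensitive HT-29, 21 of 33 were lower, where 18% of 23756 genes were. The count of higher members was 0 in each line with edgeR and with DESeq2, where 21.4% of all genes tested were higher in the HT-29 comparison, 4.17% in that of HCT-116 and 3.69% in that of DLD-1. At an unadjusted p under 0.05, 6 members were higher in HCT-116, 1 in HT-29 and 0 in DLD-1, with no share of all genes to set beside them. The median log2 fold change of the members was -0.11 for DLD-1, -0.49 for HCT-116 and -3.44 for HT-29, beside -0.0094, 0.0046 and 0.001 over all genes tested. Scaled by library size alone, the HT-29 comparison had an all-gene median of 0.26 and 64.9% of the genes counted were higher (54.4% with TMM scaling).

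The stretches of members that fell were not the same from line to line. ZNF577 and ZNF649 were lower in all 3 lines, 13 members in 2 lines, 8 in 1 line and 14 in none. Each of the 13 was lower in the HT-29 comparison, whose libraries labelled resistant carry HCT-116 markers. The tally therefore does not count independent lines. In HCT-116 the longest run of neighbouring members that fell held 9 genes, from ZNF83 to ZNF160. In the libraries labelled resistant HT-29 it held 6, from ZNF600 to ZNF816. In DLD-1 it held 2, ZNF577 and ZNF649. Of the 37 members, 4 to 5 per line were too low to be tested. They were ZNF534 and ZNF415 in every line, joined by ZNF350 and ZNF880 for DLD-1, by ZNF615, ZNF836 and ZNF808 for HCT-116, and by ZNF610 and ZNF880 for HT-29.

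**Figure D3:**
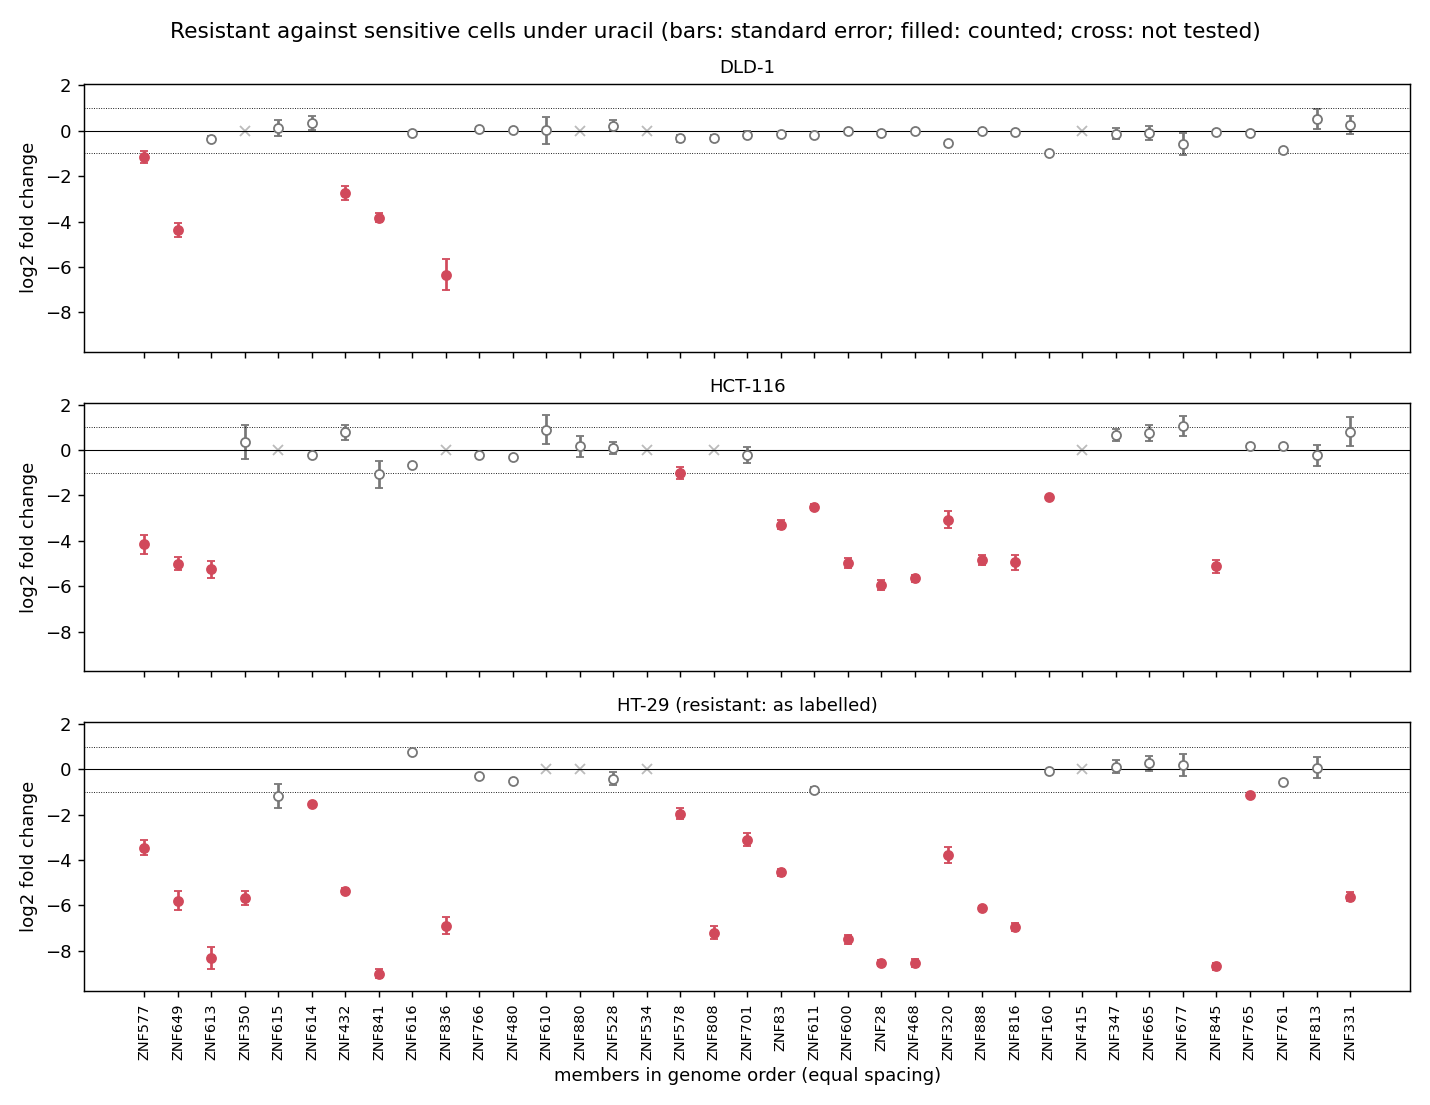
log2 fold change of each member, resistant against sensitive cells under uracil, with its standard error, by genome order at equal spacing, for each line. Filled points were counted as lower, open points were not counted and crosses were not tested; dotted lines mark a 2-fold change. The filled points of DLD-1 lie among the first 10 members, and those of HCT-116 among the first 3, between ZNF578 and ZNF160, and at ZNF845.

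ZNF649, a KRAB zinc finger repressor and the gene the cluster is listed around, was near or above 1 TPM in every sensitive uracil library and below 0.3 TPM in every resistant one. In DLD-1 the sensitive libraries held 0.973, 1.07 and 1.01 TPM and the resistant ones 0.0182, 0.17 and 0.253 TPM. In HCT-116 the values were 1.98, 2.51 and 1.97 TPM in sensitive and 0.0658, 0.063 and 0.0859 TPM in resistant cells. In HT-29 they were 1.15, 1.83 and 1.42 TPM in sensitive cells and 0.0178, 0 and 0.194 TPM in the libraries labelled resistant. The forms did not overlap in any line. The log2 fold changes were -4.38 ± 0.31 (SE, adjusted p = 4.03e-10) in DLD-1, -5.00 ± 0.30 (adjusted p = 4.26e-12) in HCT-116 and -5.79 ± 0.41 (adjusted p = 1.36e-12) in HT-29, by edgeR. Under 5-FU and 5-FU+IR together, the 6 resistant libraries of DLD-1 ran from 0.0322 to 0.072 TPM (median 0.054) and the 6 sensitive ones from 0.897 to 1.6 TPM (median 1.01). In HCT-116 they ran from 0 to 0.0738 TPM (median 0.0466) and 1.4 to 1.84 TPM (median 1.77), and in HT-29 from 0.0108 to 0.218 TPM (median 0.0674) and 1.04 to 1.53 TPM (median 1.14).

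ZNF577 is the first member in genome order, and its annotated span overlaps that of ZNF649 by 1716 bases. In DLD-1 it was at 0.962, 0.578 and 0.878 TPM in sensitive and 0.311, 0.341 and 0.26 TPM in resistant libraries, a log2 fold change of -1.16 ± 0.26 (adjusted p = 0.00147). This was the weakest of the falls in DLD-1. In HCT-116 ZNF577 was at 0.979, 2.36 and 1.66 TPM in sensitive and 0.0354, 0.055 and 0.112 TPM in resistant cells (-4.16 ± 0.41, adjusted p = 1.57e-08). In HT-29 it was at 1.1, 0.587 and 0.608 TPM and, in the libraries labelled resistant, 0.0504, 0.116 and 0.0421 TPM (-3.44 ± 0.33, adjusted p = 6.07e-10). The forms did not overlap in any line. The DLD-1 call was lost without replicate 1 (adjusted p = 0.0152) and without replicate 3 (adjusted p = 0.0365). Under 5-FU and 5-FU+IR, sensitive libraries ran from 0.673 to 1.27 TPM (median 1.06) for DLD-1, 1.25 to 2.27 TPM (median 1.76) for HCT-116 and 0.571 to 1.26 TPM (median 0.861) for HT-29. The resistant ones ran from 0.236 to 0.387 TPM (median 0.313), 0.00876 to 0.136 TPM (median 0.114) and 0.0611 to 0.164 TPM (median 0.0973).

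ZNF432, ZNF841 and ZNF836 lie close together, with ZNF616 between the last pair, and were lower in resistant DLD-1 and the labelled resistant HT-29 libraries, while they were low in sensitive HCT-116. The outermost annotated starts of ZNF841 and ZNF432 lie 27 bases apart. Their RefSeq promoter windows do not lie together, at chr19:52095766-52096015 for ZNF841 and chr19:52048839-52049088 for ZNF432. ZNF841 was at 1.71, 1.71 and 1.91 TPM in sensitive and 0.334, 0.0965 and 0.335 TPM in resistant DLD-1 (-3.83 ± 0.19, adjusted p = 1.58e-12). In HT-29 ZNF841 was at 12.7, 13.5 and 17.4 TPM and 0.127, 0 and 0.0488 TPM (-9.0 ± 0.21, adjusted p = 4.74e-23), the largest fall of any member there. In HCT-116 it was at 0.562, 0.396 and 0.357 TPM and 0.0784, 0.0735 and 0 TPM and was not counted under uracil (adjusted p = 0.151). ZNF432, known as a factor in the choice of DNA repair pathway, was at 0.688, 0.901 and 0.576 TPM in sensitive and 0.0669, 0.131 and 0.0943 TPM in resistant DLD-1 (-2.75 ± 0.30, adjusted p = 3.14e-07). In HT-29 ZNF432 was at 6.45, 5.75 and 6.49 TPM and 0.153, 0.168 and 0.203 TPM (-5.35 ± 0.14, adjusted p = 1.05e-21). In HCT-116 it was near 0.1 TPM in both forms, at 0.0987, 0.112 and 0.0871 TPM in sensitive and 0.138, 0.255 and 0.136 TPM in resistant cells. The annotated spans of ZNF432 and ZNF841 overlap by 31274 bases on the same strand. The transcript ZNF432-201, at 4.03 TPM in sensitive HT-29 under uracil, spans chr19:52031378-52048838, outside ZNF841 (chr19:52064465-52095765). Of the 31-base words in ZNF432 transcripts, 2.51% also occur in ZNF841. How far reads were shared between the genes was not tested.

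ZNF836 reached the detection floor, at most 3 estimated counts in every library of the group. It was at 1.68, 0.735 and 0.867 TPM in sensitive and 0, 0.0767 and 0 TPM in resistant DLD-1, at least 11.9-fold lower against that floor (adjusted p = 2.37e-07). ZNF836 had the largest fitted fall of DLD-1. In HT-29 it was at 4.31, 3.99 and 4.16 TPM and 0, 0.109 and 0.0738 TPM, at least 36.6-fold lower (adjusted p = 3.43e-15). In HCT-116 ZNF836 was at 0.143, 0 and 0.16 TPM in sensitive and 0.187, 0.0384 and 0 TPM in resistant cells and was not tested. Under 5-FU and 5-FU+IR, ZNF836 in sensitive HT-29 ran from 7.01 to 8.7 TPM (median 7.72), ZNF841 from 25.6 to 30.7 TPM (median 29.7) and ZNF432 from 9.68 to 11.3 TPM (median 10.2). In resistant DLD-1 the ranges under these treatments were 0 to 0.173 TPM (median 0.0151), 0.0621 to 0.431 TPM (median 0.16) and 0.0333 to 0.164 TPM (median 0.0953), and in sensitive DLD-1 0.909 to 1.47 TPM (median 1.2), 2.22 to 3.18 TPM (median 2.66) and 1.17 to 1.78 TPM (median 1.34). The treated libraries labelled resistant HT-29 stayed low, at 0 to 0.493 TPM (median 0.0808), 0 to 0.126 TPM (median 0.0543) and 0.0858 to 0.198 TPM (median 0.14). In treated HCT-116 the sensitive ranges were 0 to 0.191 TPM (median 0.0823), 0.225 to 1.4 TPM (median 0.608) and 0.0657 to 0.171 TPM (median 0.117), and the resistant ones 0.0125 to 0.222 TPM (median 0.0792), 0 to 0.0523 TPM (median 0.0277) and 0.141 to 0.206 TPM (median 0.175).

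From ZNF83 to ZNF816 the cluster was transcribed in all sensitive cells and in resistant DLD-1, and in resistant HCT-116 every one of these genes apart from ZNF611 was at 1.03 TPM or less under uracil. ZNF28 and ZNF468 start 49 bases apart on the minus strand. ZNF28 was at 8.49, 10.9 and 9.34 TPM in sensitive and 0.0643, 0.0626 and 0.533 TPM in resistant HCT-116 (-5.96 ± 0.22, adjusted p = 1.63e-15), the largest fall in that line. In DLD-1 ZNF28 was at 12.5, 13.6 and 13.5 TPM and 13.2, 12.3 and 14 TPM, and the forms overlapped (-0.078 ± 0.048, adjusted p = 0.233). In HT-29 ZNF28 was at 31.2, 30.8 and 28.5 TPM in sensitive cells and 0.0245, 0.0754 and 0.0284 TPM in the libraries labelled resistant (-8.55 ± 0.13, adjusted p = 1.23e-26). ZNF468, whose promoter is printed above, was at 7.64, 7.74 and 7.59 TPM in sensitive and 0.0915, 0.487 and 0.37 TPM in resistant HCT-116 (-5.66 ± 0.16, adjusted p = 3e-17). In DLD-1 ZNF468 was at 19.1, 18.8 and 18.7 TPM and 19.3, 19.2 and 18.4 TPM and overlapped (0.013 ± 0.039). In HT-29 it was at 30.3, 28.7 and 27.2 TPM and 1.03, 0.17 and 0.346 TPM (-8.54 ± 0.18, adjusted p = 3.3e-24). The pair overlaps by 19591 bases and shares 11.5% of the 31-base words of ZNF28 and 12.7% of those of ZNF468, so their individual levels are less certain than their common fall.

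ZNF83 was at 5.17, 5.58 and 4.87 TPM in sensitive and 0.548, 0.294 and 0.537 TPM in resistant HCT-116 (-3.28 ± 0.20, adjusted p = 6.46e-12). In HT-29 ZNF83 was at 9.22, 7.6 and 11.5 TPM and 0.603, 0.454 and 0.738 TPM (-4.54 ± 0.14), and in DLD-1 at 15.7, 15.6 and 16.8 TPM and 14.3, 12.9 and 14.7 TPM (-0.12 ± 0.058, adjusted p = 0.105). Its lowest value in any library was 0.294 TPM. ZNF600 fell further, from 4.34, 3.98 and 3.8 TPM in sensitive to 0.0589, 0.0419 and 0.128 TPM in resistant HCT-116 (-4.99 ± 0.22, adjusted p = 2.72e-14). In HT-29 ZNF600 was at 9.33, 8.5 and 11.5 TPM and 0.0248, 0.0942 and 0.0467 TPM (-7.50 ± 0.19), and in DLD-1 at 14.6, 15.3 and 15.2 TPM and 15.6, 15.3 and 16.2 TPM (-0.024 ± 0.051). The HCT-116 and HT-29 forms of ZNF600 lay far apart, and its change in DLD-1 did not pass (adjusted p = 0.764). ZNF320 was at 5.21, 4.56 and 4.71 TPM and 0.162, 1.03 and 0.668 TPM in HCT-116 (-3.07 ± 0.39, adjusted p = 7.66e-07). In HT-29 ZNF320 was at 5.75, 5.64 and 6.66 TPM and 0.565, 0.756 and 0.148 TPM (-3.77 ± 0.37). In DLD-1 it was at 16.6, 16.2 and 15.3 TPM and 13, 12.7 and 13.8 TPM, a difference past the adjusted p but under 2-fold (-0.55 ± 0.12, adjusted p = 0.000982).

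ZNF888 and ZNF816 close this stretch. ZNF888 was at 2.62, 3.01 and 2.95 TPM in sensitive and 0.0599, 0.0695 and 0.2 TPM in resistant HCT-116 (-4.85 ± 0.23, adjusted p = 8.56e-14). In HT-29 ZNF888 was at 24.7, 24.8 and 23.9 TPM and 0.692, 0.55 and 0.747 TPM (-6.11 ± 0.084), and in DLD-1 at 10.8, 10.0 and 9.81 TPM and 9.36, 10.4 and 10.3 TPM (-0.016 ± 0.058). Of the 31-base words in its transcripts 35.0% also occur in other genes, the highest share of any member, while ZNF613 had the lowest (2.93%). ZNF816 was at 3.52, 2.95 and 3.01 TPM and 0.307, 0 and 0.256 TPM in HCT-116 (-4.95 ± 0.33, adjusted p = 3.42e-11). In HT-29 ZNF816 was at 15.4, 15.5 and 13.8 TPM and 0.653, 0.0352 and 0.165 TPM (-6.95 ± 0.17), and in DLD-1 at 10.9, 12 and 10.7 TPM and 9.61, 11.4 and 12 TPM (-0.065 ± 0.07). The median share of words found in other genes was 21.4% over the 15 members lower in 2 or 3 lines, HT-29 as labelled. It was 8.34% over the other 22. Its part in the result was not tested.

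Under 5-FU and 5-FU+IR these 7 genes were also low in resistant HCT-116, and the size of the contrast moved for some. The interaction with 5-FU passed for ZNF83 (-1.57 ± 0.33, adjusted p = 0.000589) and ZNF468 (-1.41 ± 0.38, adjusted p = 0.0049), and was lost without replicate 3 for both (0.034 and 0.242) and without replicate 2 for ZNF468 (0.0116). For ZNF468 the scales differed in direction. In resistant HCT-116 its mean was 0.316 TPM under uracil and 0.545 TPM under 5-FU, with overlapping libraries, while its change on counts was -1.33 ± 0.37. In sensitive HCT-116 the means were 7.66 and 8.39 TPM (0.083 ± 0.095 on counts). In resistant HCT-116 the 6 treated libraries ran from 0.0812 to 0.779 TPM (median 0.416) for ZNF28, 0.298 to 0.909 TPM (median 0.616) for ZNF468 and 0.327 to 0.852 TPM (median 0.547) for ZNF83. For ZNF600 they ran from 0.0322 to 0.204 TPM (median 0.071), for ZNF320 from 0.0978 to 0.66 TPM (median 0.28), for ZNF888 from 0.0439 to 0.221 TPM (median 0.152) and for ZNF816 from 0.0113 to 0.275 TPM (median 0.128). In sensitive HCT-116 the ranges were 9.13 to 11.6 TPM (median 9.67) for ZNF28, 8.14 to 9.41 TPM (median 8.84) for ZNF468, 7.64 to 9.49 TPM (median 8.31) for ZNF83 and 5.2 to 6.59 TPM (median 5.88) for ZNF600. ZNF320 ran there from 6.7 to 8 TPM (median 7.29), ZNF888 from 2.39 to 2.94 TPM (median 2.7) and ZNF816 from 2.48 to 3.21 TPM (median 2.84). No treated resistant library reached the lowest treated sensitive one for any of these 7 genes.

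In HT-29 the treated libraries labelled resistant ran from 0.0644 to 0.969 TPM (median 0.418) for ZNF28, 0.15 to 0.547 TPM (median 0.391) for ZNF468 and 0.401 to 0.709 TPM (median 0.626) for ZNF83. For ZNF600 they ran from 0.0351 to 0.168 TPM (median 0.0825), for ZNF320 from 0.243 to 0.79 TPM (median 0.447), for ZNF888 from 0.38 to 0.88 TPM (median 0.497) and for ZNF816 from 0.0535 to 0.383 TPM (median 0.152). Treated sensitive HT-29 held the highest levels of the series for several of these genes. There ZNF28 ran from 49.7 to 54.1 TPM (median 51), ZNF468 from 43.6 to 47.1 TPM (median 45.9), ZNF83 from 19 to 24.5 TPM (median 22.6) and ZNF600 from 22.2 to 27 TPM (median 23.6). ZNF320 ran from 4.99 to 7.27 TPM (median 6.03), ZNF888 from 26.2 to 29.2 TPM (median 27.2) and ZNF816 from 11.2 to 14.6 TPM (median 13.2). In DLD-1 both forms stayed above 9 TPM under treatment. On TPM the resistant libraries lay below the sensitive ones without overlap for ZNF28, ZNF468, ZNF83, ZNF320 and ZNF888. The share of all genes without overlap is not given. On counts none of these differences reached 2-fold, and that of ZNF320 under 5-FU+IR was 0.033 ± 0.12. The adjusted p passed for ZNF28 under 5-FU (-0.37 ± 0.048) and 5-FU+IR (-0.27 ± 0.048) and for ZNF83 under 5-FU+IR (-0.25 ± 0.059). ZNF28 ran from 15 to 21.3 TPM (median 17.4) in sensitive and 11.9 to 14.8 TPM (median 12.9) in resistant cells, ZNF468 from 23.5 to 25.3 TPM (median 24.1) and 17.7 to 19.8 TPM (median 19), and ZNF83 from 16 to 21.3 TPM (median 19.8) and 13.2 to 15.7 TPM (median 14.1). ZNF600 ran from 15.3 to 19.6 TPM (median 18.4) and 14.3 to 16.8 TPM (median 15.8), ZNF320 from 16.2 to 20.2 TPM (median 18.3) and 12.2 to 15.6 TPM (median 13.2), ZNF888 from 11.3 to 12.7 TPM (median 12) and 9.29 to 10.7 TPM (median 10.2), and ZNF816 from 10.7 to 12.6 TPM (median 11.6) and 10.1 to 11.8 TPM (median 10.8).

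ZNF613, ZNF578 and ZNF845 lie outside that stretch and were also lower in resistant HCT-116 and the labelled resistant HT-29 libraries. ZNF613 was at 2.03, 1.59 and 1.61 TPM in sensitive and 0.066, 0 and 0.256 TPM in resistant HCT-116 (-5.25 ± 0.37, adjusted p = 7.29e-11). In HT-29 ZNF613 was at 2.3, 2.72 and 1.79 TPM and 0, 0.0182 and 0 TPM, at least 38.9-fold lower against the floor (adjusted p = 1.59e-14). In DLD-1 it was at 4.33, 4.23 and 4.4 TPM and 2.58, 2.4 and 2.83 TPM without being counted (-0.34 ± 0.12, adjusted p = 0.0284). ZNF845, near the far end of the cluster, was at 2.25, 2.1 and 2.43 TPM and 0.0093, 0.049 and 0.0949 TPM in HCT-116 (-5.12 ± 0.29, adjusted p = 1.92e-12). In HT-29 ZNF845 was at 7.65, 7.46 and 7.6 TPM and 0.0132, 0.0271 and 0.0118 TPM (-8.68 ± 0.15, adjusted p = 1.06e-25), and in DLD-1 at 3.16, 2.82 and 2.91 TPM and 3.39, 2.96 and 2.53 TPM (-0.071 ± 0.09). ZNF578 was low everywhere, at 0.243, 0.206 and 0.196 TPM and 0.121, 0.12 and 0.0886 TPM in HCT-116, 0.274, 0.297 and 0.394 TPM and 0.138, 0.0907 and 0.079 TPM in HT-29, and 0.537, 0.585 and 0.555 TPM and 0.438, 0.531 and 0.388 TPM in DLD-1. Its HCT-116 call (-1.01 ± 0.25, adjusted p = 0.00178) lay just past the 2-fold limit and was lost with DESeq2 (-0.98), without the low-count filter and with library size alone (-0.94). Under 5-FU and 5-FU+IR, ZNF613 ran from 1.24 to 2.21 TPM (median 1.83) in sensitive and 0 to 0.0845 TPM (median 0.0721) in resistant HCT-116, from 1.91 to 2.59 TPM (median 1.99) and 0 to 0.246 TPM (median 0.0232) in HT-29, and from 3.54 to 4.91 TPM (median 4.48) and 2.12 to 3.89 TPM (median 2.61) in DLD-1. ZNF845 ran from 1.45 to 1.79 TPM (median 1.61) and 0.0108 to 0.0497 TPM (median 0.0244) in HCT-116, from 8.46 to 9.14 TPM (median 8.77) and 0.0116 to 0.0443 TPM (median 0.0331) in HT-29, and from 2.97 to 3.33 TPM (median 3.04) and 2.63 to 3.51 TPM (median 3.08) in DLD-1. ZNF578 stayed under 1 TPM throughout, from 0.224 to 0.378 TPM (median 0.287) and 0.0593 to 0.118 TPM (median 0.103) in HCT-116, from 0.477 to 0.629 TPM (median 0.573) and 0.095 to 0.196 TPM (median 0.113) in HT-29, and from 0.515 to 0.763 TPM (median 0.708) and 0.434 to 0.578 TPM (median 0.51) in DLD-1.

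Another group of members stayed transcribed in every condition. ZNF766, with a CpG-rich promoter printed above, was at 17.7, 16.4 and 17.3 TPM in sensitive and 17.8, 21.2 and 21 TPM in resistant DLD-1, and at 16.3, 15.9 and 19.7 TPM in sensitive and 16, 15 and 15.5 TPM in resistant HCT-116. In sensitive HT-29 it was at 18.4, 16.8 and 15.4 TPM, beside 16.8, 17.7 and 18.1 TPM in the labelled resistant libraries, and no form of any line was far from another. Its treated libraries ran from 12 to 15.3 TPM (median 14.5) in sensitive and 15.2 to 18.9 TPM (median 17.1) in resistant DLD-1, 12.4 to 15.1 TPM (median 14.8) in sensitive and 13.5 to 17.5 TPM (median 15.7) in resistant HCT-116, and 11.6 to 14.6 TPM (median 12.9) in sensitive and 17 to 21 TPM (median 19.2) in labelled resistant HT-29 libraries. No member of this group except ZNF160, ZNF611 and ZNF765 was counted in any line under uracil. ZNF480 was at 13.3 ± 0.945 TPM (SD, n = 3) in sensitive and 7.12 ± 0.612 TPM in resistant HCT-116, and its fitted change on counts was smaller than the ratio of these levels (-0.30 ± 0.079). Counts do not correct for transcript length, so a change in the mix of transcripts moves both scales apart. ZNF616 was at 5.68 ± 0.767 TPM in sensitive HT-29 and 7.75 ± 0.452 TPM in the libraries labelled resistant (0.75 ± 0.081). ZNF761 was at 16.3 ± 0.269 TPM in sensitive and 9.27 ± 0.414 TPM in resistant DLD-1, past the adjusted p but under 2-fold (-0.84 ± 0.05, adjusted p = 2.82e-11). ZNF160 was at 13.9 ± 0.992 TPM in sensitive and 3.64 ± 0.232 TPM in resistant HCT-116 (-2.08 ± 0.061, adjusted p = 5.06e-17). In DLD-1 ZNF160 was at 7.66 ± 0.252 and 3.72 ± 0.491 TPM, just under the 2-fold limit (-0.98 ± 0.087, adjusted p = 1.26e-08). ZNF611 fell in HCT-116 from 6.2 ± 1.17 to 2.35 ± 0.474 TPM (-2.5 ± 0.14, adjusted p = 2.18e-12).

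In 6 further members the HT-29 comparison was the only one of the 3 with a call under uracil, although ZNF808 was not tested in HCT-116 and ZNF350 not in DLD-1, and the differences between lines were not tested for HT-29. ZNF350, a KRAB zinc finger protein that binds BRCA1, was at 3.98 ± 0.71 TPM in sensitive HT-29 and 0.169 ± 0.0775 TPM in the labelled resistant libraries (-5.67 ± 0.32). ZNF331 was at 5.63 ± 0.735 and 0.281 ± 0.192 TPM (-5.61 ± 0.19), and ZNF614 at 9.74 ± 0.764 and 3.81 ± 0.382 TPM (-1.55 ± 0.062). ZNF808, a factor required for normal pancreas development, was at 3.08 ± 0.42 and 0.0412 ± 0.0481 TPM, at least 72.9-fold lower against the floor. ZNF701 was at 1.38 ± 0.291 and 0.227 ± 0.0898 TPM (-3.09 ± 0.28) and ZNF765 at 10.3 ± 0.352 and 5.93 ± 0.454 TPM (-1.11 ± 0.059). The ZNF765 call ended with library size alone (-0.84), which put the all-gene median of this comparison at 0.26. Under uracil, sensitive and resistant HCT-116 had means of 0.21 and 0.348 TPM for ZNF350 and 0.0463 and 0.105 TPM for ZNF331. The means were 2.96 and 2.79 TPM for ZNF614, 0.259 and 0.367 TPM for ZNF701, and 4.45 and 5.32 TPM for ZNF765. Of the 6, only ZNF808 was counted against sensitive HCT-116. Since the libraries labelled resistant HT-29 carry HCT-116 markers, a difference of resistance and a difference of line cannot be told apart here.

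Set against sensitive HCT-116 in a fit over all 54 libraries, the libraries labelled resistant HT-29 were lower in 13 of 36 members tested, where 4.6% of 26043 genes were. The count of higher members was 0 with edgeR and with DESeq2, where 2.27% of all genes were higher. At an unadjusted p under 0.05, 3 members were higher, and the share of all genes at that p is not given. Of these 13 members, 12 (92.3%) were among the 14 that fell in resistant HCT-116, of which they made up 85.7%. The 2 comparisons share the sensitive HCT-116 libraries. ZNF160 and ZNF611 were counted in resistant HCT-116 and not in the labelled HT-29 libraries. ZNF808 was counted in the labelled HT-29 libraries, with overlapping values, and was too low to be tested in HCT-116, where its 9 sensitive libraries had a median of 0.163 TPM and its 9 resistant ones 0.0082 TPM. That ZNF808 call was lost with library size alone (adjusted p = 0.0114) and without replicate 1 (0.0198), 2 (0.0562) or 3 (0.0388). ZNF613 was at least 29.7-fold lower against the floor, and ZNF28 (-6.95 ± 0.19), ZNF468 (-6.91 ± 0.19) and ZNF845 (-6.73 ± 0.26) had the largest falls of the others.

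Set against resistant HCT-116, the labelled resistant HT-29 libraries were higher in 3 members, where 1.61% of all genes were, and lower in 0, where 1.75% were. The count of lower members was 1 with DESeq2. At an unadjusted p under 0.05, 5 were lower, again without the share of all genes. ZNF160 was at 13.4, 12.2 and 12.8 TPM in the labelled resistant HT-29 libraries and 3.45, 3.57 and 3.9 TPM in resistant HCT-116 (1.81 ± 0.072, adjusted p = 3.65e-26). ZNF611 was at 6.81, 3.73 and 4.94 TPM and 2.39, 2.8 and 1.85 TPM (1.77 ± 0.14, adjusted p = 3.59e-15). ZNF888 was at 0.692, 0.55 and 0.747 TPM and 0.0599, 0.0695 and 0.2 TPM (1.99 ± 0.25, adjusted p = 4.87e-09). The libraries of the compared groups did not overlap for any of the 3.

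The effect of resistance on the members differed between HCT-116 and DLD-1. An interaction term, added after the first results had been seen, passed an adjusted p of 0.01 for 18 of 36 members, where 32.3% of 26043 genes did. The term, the HCT-116 change minus the DLD-1 change, was negative for 14 members, where it was for 18.3% of genes, and positive for 4, where it was for 14%. The 14 included ZNF766 (-0.29 ± 0.082) and ZNF616 (-0.55 ± 0.099), which were counted in neither line. The 4 were ZNF432, ZNF841, ZNF836 and ZNF761, and sensitive HCT-116 held less than 1 TPM of the first 3. Among the 14, the largest terms were those of ZNF28 (-5.87 ± 0.19), ZNF468 (-5.66 ± 0.19) and ZNF845 (-5.04 ± 0.25). For ZNF649 the term did not pass (adjusted p = 0.486, -0.61 ± 0.64).

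The comparison of resistant with sensitive cells was repeated under each treatment. Under 5-FU, 7 DLD-1, 16 HCT-116 and 22 HT-29 members were lower, where 5.23%, 8.03% and 21% of genes tested were. Under 5-FU+IR the counts were again 7, 16 and 22, where 5.07%, 6.14% and 20.3% of genes were. The members lower under all 3 treatments numbered 5 of the 7 lower under any in DLD-1, 14 of 16 for HCT-116 and 20 of 23 for HT-29. ZNF615 and ZNF160 in DLD-1, and ZNF841 and ZNF701 in HCT-116, were counted under both drug treatments and not under uracil. For ZNF160 the uracil value (-0.98 ± 0.087) lay just under the 2-fold limit, and its response to 5-FU was not shown to differ between forms (interaction adjusted p = 0.323), nor was that of ZNF841 (0.515) or ZNF701 (0.114). For ZNF615 the interaction passed (adjusted p = 0.00183), but not with any replicate number left out. The HCT-116 calls of ZNF841 and ZNF701 were lost with DESeq2 and without any 1 of the 3 replicate numbers, under either treatment (adjusted p from 0.0104 to 0.122). The ZNF615 call under 5-FU+IR was lost in 8 alternatives, DESeq2 (adjusted p = 0.0378) and the replicate block (0.0142) among them, and that under 5-FU without replicate 1 (0.0174). The ZNF160 call under 5-FU+IR fell under 2-fold without replicate 3 (-0.92). ZNF616 was the only member counted as higher among these comparisons. Of all genes tested, 3.88% and 5.28% were higher under 5-FU in DLD-1 and HCT-116, and 4.31% and 5.72% under 5-FU+IR. In DLD-1, scaling by library size alone lowered the share of counted genes that were higher from 42.6% to 31.8% under 5-FU and from 46.0% to 33.4% under 5-FU+IR. ZNF616 was higher in the labelled resistant HT-29 libraries under 5-FU (1.33 ± 0.08) and under 5-FU+IR (1.45 ± 0.082), where 21.7% and 22.1% of genes were higher.

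5-FU itself moved few members by 2-fold. Against uracil, 0 of 33 members were counted in sensitive DLD-1, where 4.02% of genes were, and DESeq2 also counted 0. In sensitive HCT-116, 1 of 32 was counted, where 8.14% of genes were. This was ZNF701, at 0.18, 0.467 and 0.131 TPM under uracil and 0.612, 0.751 and 0.341 TPM under 5-FU, with overlapping libraries (1.18 ± 0.32, adjusted p = 0.00325), a call lost without replicate 1 (adjusted p = 0.0558) or replicate 2 (adjusted p = 0.0454). In sensitive HT-29, 1 of 33 was counted, where 12.2% of genes were. This was ZNF836, at 4.31, 3.99 and 4.16 TPM under uracil and 8.3, 8.7 and 8.02 TPM under 5-FU (1.01 ± 0.15, adjusted p = 2.94e-06), which fell under the 2-fold limit without replicate 3 (0.98).

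At the adjusted p alone, smaller changes were seen in sensitive cells. There were 4 members that rose and 2 that fell for DLD-1, again 4 and 2 for HCT-116, and 10 and 6 for HT-29. The share of all genes that passed at the adjusted p alone is not given, so these counts have no background beside them. ZNF766 fell in all 3 lines, by log2 values of -0.35 ± 0.064 (DLD-1), -0.23 ± 0.052 (HCT-116) and -0.65 ± 0.056 (HT-29). ZNF28 rose in DLD-1 (0.32 ± 0.046) and HT-29 (0.44 ± 0.054). ZNF83 and ZNF600 rose in HCT-116 (1.00 ± 0.14 and 0.70 ± 0.13) and HT-29 (0.68 ± 0.082 and 0.97 ± 0.075). ZNF841 rose in DLD-1 (0.55 ± 0.12) and HT-29 (0.90 ± 0.074). In sensitive HT-29 the summed TPM was 253 ± 2.46 under uracil, 361 ± 4.80 under 5-FU and 361 ± 9.60 under 5-FU+IR, without overlap between uracil and either treatment. The median log2 fold change of the members was 0.16 for DLD-1, 0.19 for HCT-116 and 0.24 for HT-29, beside 0.015, 0.025 and 0.035 over all genes tested. With library size alone these last medians were 0.12, 0.11 and 0.19, and the share of counted genes that were higher was 78.1% in DLD-1 (66.1% with TMM) and 84.9% in HT-29 (72.8%).

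**Figure D4:**
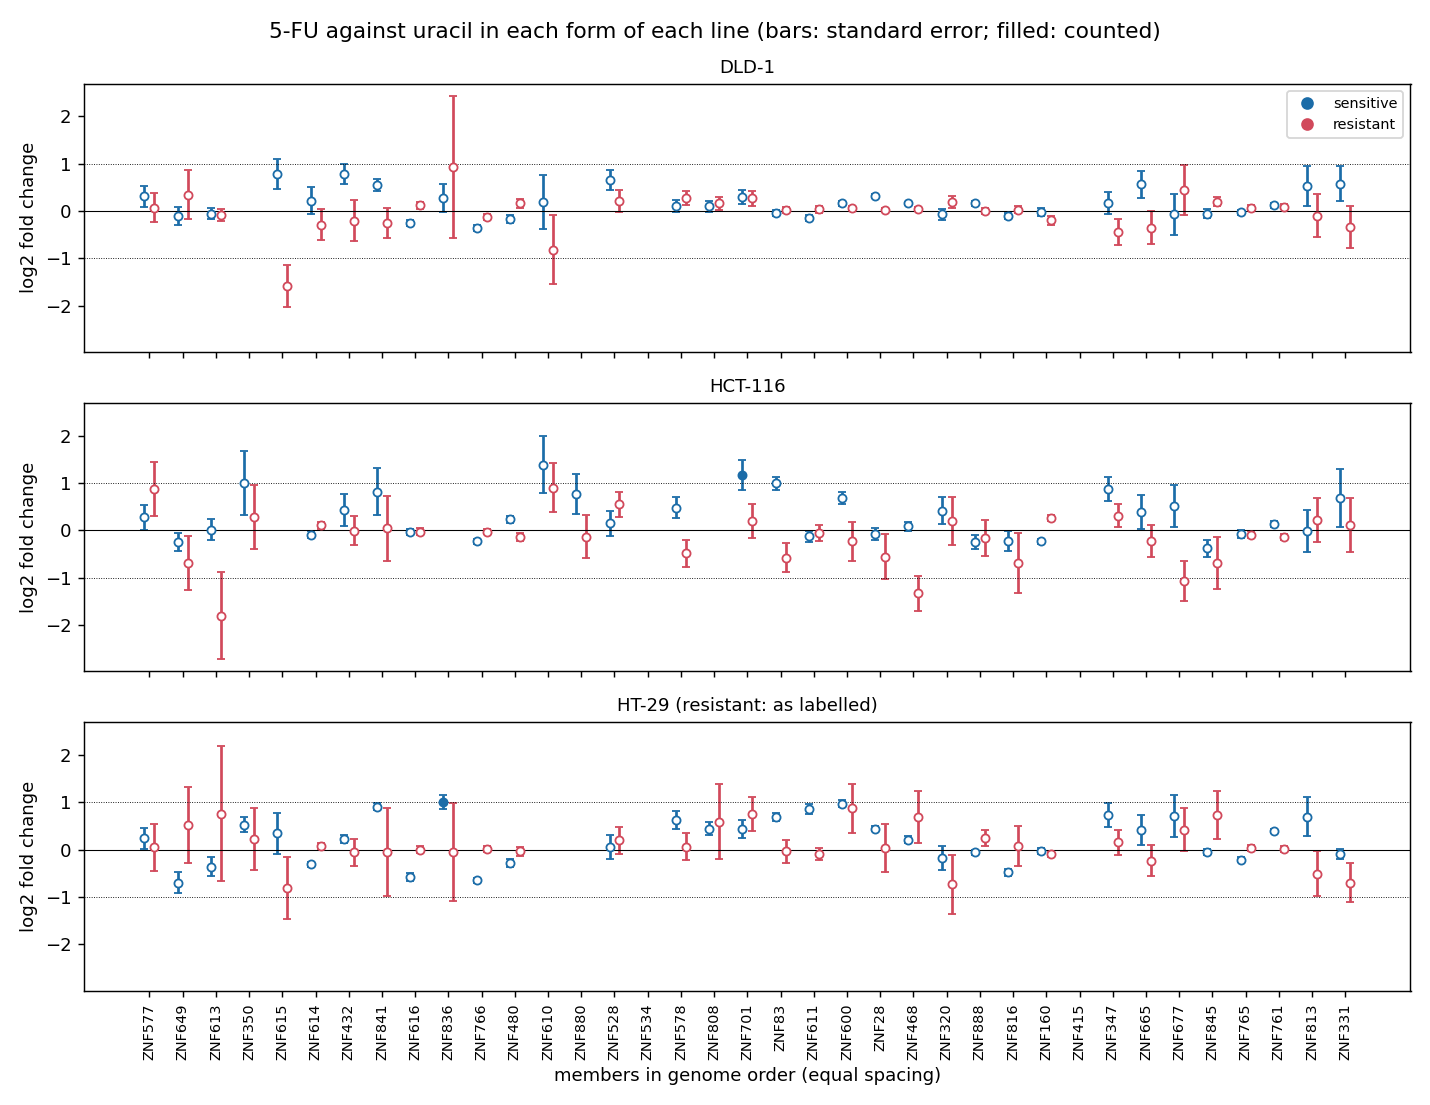
log2 fold change of each member, 5-FU against uracil, with its standard error, in sensitive and resistant cells of each line, by genome order. Filled points were counted; these are ZNF701 in sensitive HCT-116 and ZNF836 in sensitive HT-29, and bars are widest for members near 0 TPM.

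In resistant cells 5-FU moved no member past the threshold. The count was 0 in each line with edgeR and with DESeq2, where 0.0138% of genes were counted in DLD-1, 0% in HCT-116 and 0.00421% for HT-29. At an unadjusted p under 0.05 there were 2 members for DLD-1, 4 for HCT-116 and 1 for HT-29, given without the share of all genes. The difference in 5-FU response between resistant and sensitive cells passed an adjusted p of 0.01 for 3 members in DLD-1, where 22.8% of genes did, 4 in HCT-116, where 29.7% did, and 5 in HT-29, where 35.4% did. In DLD-1 the largest was ZNF615 (-2.37 ± 0.54), and with any replicate number left out the count was 0. In HCT-116 it was ZNF83 (-1.57 ± 0.33), and in HT-29 ZNF611 (-0.95 ± 0.17). With library size alone, the share of counted terms above 0 was 39.2% for DLD-1 (60.02% with TMM), 51.5% for HCT-116 (61.6%) and 41.2% for HT-29 (54.5%). The HCT-116 term compares a gene near 0.5 TPM in resistant cells with one above 4 TPM in sensitive cells.

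Irradiation added to 5-FU moved no member past the threshold, and at most 0.434% of all genes passed it in any comparison. Against 5-FU alone, the count was 0 in both forms of all 3 lines with edgeR and with DESeq2. Of all genes tested, 0% were counted in sensitive DLD-1, 0% in sensitive HCT-116 and 0.00842% in sensitive HT-29. The share was 0.142% in resistant DLD-1, 0.0261% in resistant HCT-116 and 0.434% in the labelled resistant HT-29 libraries. At an unadjusted p under 0.05 there were 0 members in sensitive DLD-1 and HT-29 and 1 in sensitive HCT-116. There were 4 in resistant DLD-1, 3 in resistant HCT-116 and 7 in the labelled resistant HT-29 libraries. The share of all genes at that unadjusted p is not given.

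The sensitive lines also differed from each other. Under uracil, 17 of 36 members were lower and 1 higher in HCT-116 than in DLD-1. Of 26043 genes, 30.7% differed there in either direction (14.2% lower, 16.6% higher). In HT-29, 2 were lower and 9 higher than in DLD-1, where 30.9% of genes differed (17.4% lower, 13.4% higher). Taken in either direction, the members called in that comparison were near the share of all genes. Against HCT-116, 0 were lower and 17 higher in HT-29, where 37.5% of genes differed (20.9% lower, 16.7% higher). These 3 comparisons share their libraries. The 1 higher member in HCT-116 was ZNF614, at 2.96 ± 0.103 TPM (SD, n = 3) beside 0.491 ± 0.106 TPM in DLD-1 and 9.74 ± 0.764 TPM in HT-29. ZNF331, a maternally expressed imprinted gene, was at 5.63 ± 0.735 TPM in HT-29, 0.118 ± 0.0782 TPM in DLD-1 and 0.0463 ± 0.0172 TPM in HCT-116, and only the HT-29 level was far from 0. ZNF888 was at 24.5 ± 0.472 TPM in HT-29, 10.2 ± 0.498 TPM in DLD-1 and 2.86 ± 0.213 TPM in HCT-116, in that order without overlap. ZNF480 was highest in DLD-1 (19.7 ± 0.312 TPM), then in HCT-116 (13.3 ± 0.945 TPM) and HT-29 (6.45 ± 0.552 TPM).

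Other zinc finger genes and the neighbours give the setting. Under uracil, 2.01% of all genes tested were lower in resistant DLD-1, 6.8% in resistant HCT-116 and 18% in the labelled resistant HT-29 libraries. The shares that were higher were 3.69%, 4.17% and 21.4%. In the same order, 12 of 172 (6.98%), 28 of 163 (17.2%) and 66 of 171 (38.6%) ZNF-numbered genes elsewhere on chromosome 19 were lower. The higher ones numbered 4 (2.33%), 7 (4.29%) and 17 (9.94%). Of those on other chromosomes 4 of 208 (1.92%), 19 of 211 (9.0%) and 35 of 219 (16.0%) were lower, and 4 (1.92%), 0 and 30 (13.7%) were higher. Between the members, 3 of 11 (27.3%), 2 of 10 (20%) and 5 of 11 (45.5%) other genes tested were lower and none was higher. In DLD-1 these were the pseudogenes ZNF702P (-2.09 ± 0.12), TPM3P6 (-1.67 ± 0.42) and TPM3P9 (-1.33 ± 0.067). In HCT-116 they were ZNF321P (-2.75 ± 0.36) and ZNF525 (-2.47 ± 0.21), which is a zinc finger gene of the span that is not on the list. Within 500 kb outside the span 0 of 14, 1 of 14 (7.14%) and 5 of 15 (33.3%) genes were lower and 2 (14.3%), 0 and 2 (13.3%) were higher.

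Between forms, the genes through which KRAB zinc finger proteins act were seldom counted under uracil and more often in HCT-116 under the drug. Of 32 genes of TRIM28, SETDB1, heterochromatin, SUMO and DNA methylation pathways, all tested, none was counted in DLD-1 or HCT-116 under uracil. In HT-29, 2 were lower (6.25%, beside 18% of all genes) and 1 was higher (3.12%, beside 21.4%). These were CBX3, a heterochromatin protein (-1.01 ± 0.048), PIAS1, a SUMO ligase (-1.0 ± 0.045), and DNMT3B, a DNA methyltransferase (1.87 ± 0.061). TRIM28 was at 618 ± 15.7 TPM in sensitive and 585 ± 25.3 TPM in resistant DLD-1 (0.0088 ± 0.052, adjusted p = 0.922). In HCT-116 TRIM28 was at 685 ± 36.6 TPM and 1162 ± 83.8 TPM (0.68 ± 0.047, adjusted p = 5.21e-11), a rise under 2-fold. In HT-29 it was at 859 ± 50.3 TPM and 1056 ± 34.9 TPM (0.14 ± 0.042). Resistant against sensitive HCT-116, 7 of the 32 genes were higher under 5-FU (21.9%, beside 5.28% of all genes) and 8 under 5-FU+IR (25%, beside 5.72%), and none was lower. In DLD-1 none was counted under either treatment. In HT-29 1 was lower (3.12%, beside 21.0% of all genes) and 2 were higher (6.25%, beside 21.7%) under 5-FU. Under 5-FU+IR 2 were lower (6.25%, beside 20.3%) and 2 higher (6.25%, beside 22.1%). With 5-FU against uracil in sensitive HCT-116, 3 of the 32 were lower (9.38%, beside 3.36% of all genes) and 0 higher (beside 4.79%). Their median log2 fold change there was -0.33. In resistant HCT-116 none of the 32 was counted, nor was any other gene, and their median was 0.0046. The difference in 5-FU response between forms was above 0 and passed for 17 of the 32 in DLD-1 (53.1%, beside 13.7% of all genes), 22 in HCT-116 (68.8%, beside 18.3%) and 16 for HT-29 (50%, beside 19.3%). It was below 0 and passed for 3 (9.38%, beside 9.12% of all genes), 0 (beside 11.4%) and 5 (15.6%, beside 16.1%). These counts of terms were not recomputed for the list with library size alone, which moved the all-gene split as given above.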

How the data were processed

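Poly(A) RNA of 54 libraries was sequenced with a directional kit. Per the labels and methods, the authors trimmed reads with Trimmomatic 0.36 and quantified them with kallisto 0.44.0 on Ensembl transcripts of GRCh38.p13. They deposited expected counts (estimated counts, not normalized, summed over the transcripts of a gene) and TPM, which the authors' kallisto run corrected for transcript length and depth. Kallisto divides a read among the transcripts it fits, so related or overlapping genes share reads by estimate. The 37 members, the lists and the tests were chosen with earlier results of these data known.

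Estimated counts were rounded and tested with edgeR 4.0.16 in R 4.3.3 (quasi-likelihood test, TMM scaling, filterByExpr), in 1 fit per line over its 18 libraries in 6 groups (12 residual degrees of freedom) and in 1 fit over all 54 libraries for comparisons between lines. A gene was counted where its log2 fold change was 1 or more in size and its Benjamini-Hochberg adjusted p did not exceed 0.01. An interaction was counted at the adjusted p alone. Counts of members at an unadjusted p, and those at the adjusted p alone outside interactions, are given without the share of all genes. Standard errors (±) of log2 fold changes are the change divided by the root of F. TPM levels are compared per length, and fold changes are on counts. Groups at 3 counts or fewer in every library give folds as bounds against 3 counts per library at the mean total, which cover counting error only. On simulated counts edgeR recovered 100 of 100 genes changed 4-fold in each line. Of 100 changed 2.5-fold it recovered 94 in DLD-1 (0 false calls among 21240 genes), 96 in HCT-116 (0 among 22333) and 96 for HT-29 (1 among 22678). The changed genes were drawn only from genes above a minimum count, and every gene had the same fixed spread. The recovery therefore does not describe members with low counts or a larger spread.

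Alternatives were DESeq2 1.42.0, library size alone, no filter, the replicate block, left-out libraries, compared groups alone and thinning of the deepest library. The interaction of resistance with line was added after seeing the data. Values in every library are given for ZNF649, for members counted in at least 2 lines under uracil, for the largest fall and rise counted in each line and for the 3 highest members, with ranges over the 6 treated libraries of a form. Positions are those of GENCODE 44, and promoters those of RefSeq (GRCh38.p14), searched on both strands for motif letters that were shortened after longer forms had been searched. RefSeq promoters were not used for ZNF649, ZNF480, ZNF610, ZNF600, ZNF28, ZNF888 and ZNF665. Replicates were compared before averaging (Pearson r of log-scale TPM across genes at least 0.990), and none was merged. Plots were drawn with matplotlib 3.10.9.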

Additional observations from a re-analysis of the deposited data

Results flagged for a closer look

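The effect of resistance under uracil differed between HCT-116 and DLD-1 for 18 members by the interaction term of the edgeR fit over 54 libraries. Passing terms were below 0 for 38.9% and above 0 for 11.1% of the members tested, beside 18.3% and 14.0% of all genes. The smallest adjusted p-values were those of ZNF28 (-5.87 ± 0.19, adjusted p = 1.02e-29) and ZNF468 (-5.66 ± 0.19, adjusted p = 1.09e-29).

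The response to 5-FU differed between resistant and sensitive cells for 3 members in DLD-1, which were ZNF615 (-2.37 ± 0.54), ZNF616 (0.37 ± 0.094) and ZNF28 (-0.29 ± 0.068). Passing terms were below 0 for 6.06% and above 0 for 3.03% of the members tested, beside 9.12% and 13.7% of all genes. Each of these 3 terms was lost with any replicate number left out. The response differed for 4 members in HCT-116, which were ZNF83 (-1.57 ± 0.33), ZNF468 (-1.41 ± 0.38), ZNF160 (0.49 ± 0.085) and ZNF480 (-0.37 ± 0.11). The shares below and above 0 there were 9.38% and 3.12% of the members, beside 11.4% and 18.3% of all genes. For ZNF468 the levels on TPM did not go in the direction of the term, as given above. The response differed for 5 members in HT-29, which were ZNF611 (-0.95 ± 0.17), ZNF766 (0.66 ± 0.08), ZNF616 (0.59 ± 0.11), ZNF614 (0.39 ± 0.087) and ZNF761 (-0.38 ± 0.075). The shares below and above 0 there were 6.06% and 9.09% of the members, beside 16.1% and 19.3% of all genes. In HT-29 the libraries labelled resistant carry HCT-116 markers, so resistance and line cannot be told apart.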

How the results depend on the processing

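Of 380 counts and ratios recomputed under the alternatives, 361 stayed within 1.5 times the reported count or within 1 SD of the ratio. Scaling by library size alone gave 2 members moved by 5-FU in sensitive HCT-116 (1 as reported), 4 in sensitive HT-29 (1) and 1 member higher in the libraries labelled resistant HT-29 than in sensitive HT-29 (0), with the median of all genes at 0.26 (log2) in that last comparison. Without the filter on low counts, 5-FU moved 2 members in sensitive and 1 in resistant HCT-116 (1 and 0), and 1 member was lower in the labelled resistant HT-29 libraries than in resistant HCT-116 (0), as with DESeq2 (1). A fit of the compared groups alone gave 2 for 5-FU in sensitive HCT-116. With a library or replicate number left out, the count for 5-FU in sensitive HCT-116 ran from 0 to 2, the members higher in resistant HCT-116 under uracil from 0 to 1 (1 without replicate 2 of the sensitive cells), and those lower in the labelled resistant HT-29 libraries than in resistant HCT-116 from 0 to 1 (1 without replicate 1). The members whose 5-FU response differed between forms were 0 in each DLD-1 run (3) and 2 to 3 in HCT-116 (4; 2 without replicate 2 or 3). On median-of-ratios counts the ratio of the summed level was 0.882 in DLD-1 (0.908 on TPM) and 0.248 in HT-29 (0.291). The cause of these shifts was not tested. Of 1863 alternatives for single members, none turned a direction and 79 lost the call. Replicate numbers 1 to 3 did not pair the libraries (correlations of same-numbered deviations from -0.082 to 0.101); with the number as a block, the members lower in resistant DLD-1 under 5-FU+IR were 6 (7), the interaction count in HCT-116 was 3 (4), and sensitive HCT-116 and DLD-1 differed in 19 members (18). The depth limits members under about 3 counts, for which no change can be given except as a bound.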
